A study of Mus musculus with 14 samples.

Results

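The Cyp2c genes of the cluster on mouse chromosome 19 were followed in liver RNA of 14 TALLYHO mice. The set consisted of *Cyp2c29*, *Cyp2c37*, *Cyp2c38*, *Cyp2c39*, *Cyp2c40*, *Cyp2c44*, *Cyp2c50*, *Cyp2c54*, *Cyp2c55* and *Cyp2c70*. The deposited table named 9 of them, and *Cyp2c44* was taken from the row *Cyp2c23*, for which RefSeq lists *Cyp2c44* as a synonym, so that 10 of 55487 rows were used. All 10 were among the 12653 genes with enough reads for the test. The genes were selected on their levels and on their difference between indole and vehicle in these same libraries, so both are given here as a description and not as a finding. A further 10 rows carried a Cyp2c name without being in the set, and 3 of these were tested.

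Cytochrome P450 enzymes of the Cyp2c subfamily are haem proteins of the endoplasmic reticulum that receive electrons from P450 oxidoreductase. In liver they oxidise drugs and other foreign compounds, and several convert arachidonic acid and linoleic acid into epoxides or hydroxy acids. The nuclear receptors CAR and PXR, the liver-enriched transcription factors and the pattern of growth hormone release are known to control many of them.

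All mice were males of the TALLYHO/JnG strain, a polygenic model of type 2 diabetes, aged 8–12 weeks. The vehicle group (*n*=7) received water by oral gavage and the indole group (*n*=7) received 20 mg/kg indole, a bacterial metabolite of tryptophan, by the same route, with 2 doses per day for 7 days and further doses between the metabolic tests. These tests measured glucose or insulin tolerance. By the schedule in the paper, the final doses came the day before the last test, and tissue was collected the day after it. Tissue came from the right lobe of the liver on day 11, and strand-specific libraries were made from polyadenylated RNA. The groups shared strain, sex and schedule, no allele was altered in either, and the labels gave no batch and no pairing.

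The libraries held 15197498–21060376 counted reads each. TMM factors, which scale a library for its composition, were 1.073–1.083 in mice G1–G4 (2 vehicle and 2 indole) and 0.9313–1.004 in the other 10, and the fold changes and relations of the Cyp2c genes are also given without these 4 libraries. Hepatocyte markers were abundant in every library (*Alb* between 47406 and 78247 CPM), and of the 6 intestinal markers *Cdx2*, *Sis* and *Muc2* had 0 reads in every library, *Vil1* was at or below 0.610 CPM, *Lgals4* had 0.293–3.48 CPM and *Fabp2* had 42.1–73.3 CPM. The erythroid markers *Alas2*, *Hbb-bs*, *Hbb-bt*, *Hba-a1* and *Hba-a2* had higher means in the indole group. Their summed level was 204–384 CPM in vehicle and 263–1092 CPM in indole mice, all 5 had an unadjusted *p* below 0.05 in edgeR (log2 fold changes 0.57 to 2.72), beside 3.81% of all genes tested, and none had an adjusted *p* below 0.05. *Hba-a1* no longer passed that level without G5 (log2 fold change 0.75) or without G14 (0.79).

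*Cyp2c29* forms epoxides from arachidonic acid and is a known CAR target. It lies at chr19:39269405-39330713 on the plus strand (GRCm38). Its level in TMM-normalised CPM, counts scaled to the size of the library, was 1625 in the lowest vehicle-treated mouse, 1924 at the median and 2101 in the highest, and 2148, 2687 and 2776 in the indole group. All 7 indole-treated mice lay above all 7 vehicle-treated mice. The means were 1872±185 and 2487±298 CPM (SD, *n*=7 each), a log2 fold change of 0.41 (SE 0.0878). Without the 4 libraries of high TMM factor it was 0.38 (SE 0.0952). The erythroid markers given above also had higher means in the indole group, and their part in this value was not tested. In bulk tissue, a different number of cells that express a gene and a different amount of its RNA per cell cannot be told apart.

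*Cyp2c39* and *Cyp2c38* are the nearest relatives of *Cyp2c29* by coding sequence, and *Cyp2c39* is known to hydroxylate retinoic acid. *Cyp2c39* (chr19:39510862-39568529, plus strand) had 536, 606 and 798 CPM at the lowest, median and highest vehicle-treated mouse and 389, 648 and 712 CPM in the indole group. *Cyp2c38* (chr19:39389556-39463075, minus strand) had 156, 202 and 247 CPM in vehicle and 128, 206 and 236 CPM in indole. The groups overlapped for both genes, and the lowest mouse for both was G2 of the indole group. The log2 fold changes were −0.13 (SE 0.122) and −0.04 (SE 0.117).

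*Cyp2c37*, *Cyp2c54* and *Cyp2c50* lie next to each other and encode enzymes that oxidise arachidonic acid or linoleic acid. *Cyp2c54* (chr19:40037940-40073827, minus strand) had 452, 527 and 707 CPM in vehicle and 471, 578 and 694 CPM in indole at the lowest, median and highest mouse. *Cyp2c50* (chr19:40089688-40113950, plus strand) had 406, 504 and 658 CPM in vehicle and 402, 538 and 628 CPM in indole. *Cyp2c37* (chr19:39992424-40012243, plus strand) had 99.0, 173 and 252 CPM in vehicle and 101, 175 and 212 CPM in indole. In all 3 genes the groups covered nearly the same range, with vehicle-treated mouse G6 the highest. Their log2 fold changes were 0.02 (SE 0.115) for *Cyp2c54*, 0.03 (SE 0.116) for *Cyp2c50* and −0.07 (SE 0.211) for *Cyp2c37*.

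*Cyp2c23* (*Cyp2c44*), an arachidonic acid epoxygenase, lies apart from the other 9 genes at chr19:44005022-44029208 on the minus strand. It had 354, 488 and 545 CPM in vehicle and 385, 460 and 473 CPM in indole. Every indole-treated mouse lay within the vehicle range and below the vehicle median, and the log2 fold change was −0.05 (SE 0.0885). *Cyp2c70*, which makes the muricholic acids of rodent bile, lies at chr19:40153353-40187333 on the minus strand. It had 225, 304 and 362 CPM in vehicle and 177, 280 and 351 CPM in indole, with 1 indole-treated mouse (G12) below all vehicle-treated mice. Its log2 fold change was −0.11 (SE 0.123).

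The remaining pair was close to the detection floor. *Cyp2c40* (chr19:39767071-39812814, minus strand), an arachidonic acid hydroxylase, had 17–46 reads per library, which is 0.933, 1.76 and 2.47 CPM in vehicle and 1.18, 1.58 and 2.42 CPM in indole. *Cyp2c55* (chr19:39007019-39042693, plus strand), a PXR- and CAR-inducible gene known from colon as well as liver, had 4–30 reads per library, which is 0.339, 0.667 and 0.781 CPM in vehicle and 0.226, 0.893 and 1.61 CPM in indole. For *Cyp2c55*, 4 indole-treated mice lay above all vehicle-treated mice and 1 lay below them. Its log2 fold change of 0.63 (SE 0.351) had an approximate 95% interval from −0.06 to 1.32, and that of *Cyp2c40* was −0.05 (SE 0.238).

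**Figure D1:**
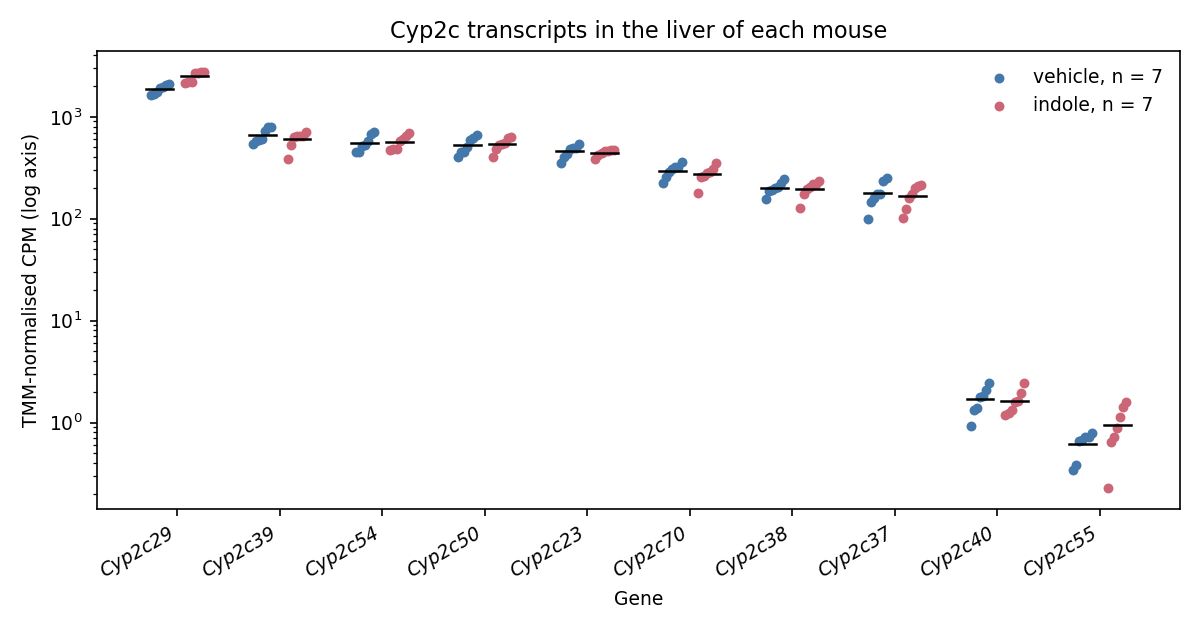
TMM-normalised CPM on a log axis for each of the 10 Cyp2c genes, with 1 point per mouse (vehicle blue, indole red, *n*=7 each) and a line at the group mean. The groups of *Cyp2c29* do not overlap, those of the other 9 genes do, and *Cyp2c40* and *Cyp2c55* lie near 1 CPM.

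The other rows with a Cyp2c name showed how much of the subfamily was read at all. *Cyp2c67* had 376±83.9 CPM in vehicle and 426±91.9 CPM in indole (SD, *n*=7), and *Cyp2c68* had 129±20.7 and 129±11.9 CPM, with overlapping groups in both. The pseudogene *Cyp2c52-ps* had 9–25 reads per library. *Cyp2c69* had 38 reads in all, *Cyp2c65* had 1, and 4 rows (*Cyp2c66*, *Cyp2c71-ps*, *Cyp2c72-ps* and *Cyp2c73-ps*) had 0 in all 14 libraries. A count of 0 in 1 library alone allows an expected count of up to 3 reads, and 0 in all 14 allows less per library. *Cyp2c53-ps* overlaps the gene model of *Cyp2c29* on the same strand and had 0–78 reads per library, against 30041–51157 for *Cyp2c29*, so strand does not separate the overlapping stretch.

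Levels of different genes were compared per kilobase of the deposited gene length, over all 14 mice. *Cyp2c29* stood at 712±130 CPM per kb (SD, *n*=14), followed by *Cyp2c39* at 348±59.3, *Cyp2c54* at 314±51.5, *Cyp2c23* at 209±23.3, *Cyp2c50* at 182±29.4 and *Cyp2c70* at 144±24.6 CPM per kb. *Cyp2c37* had 94.8±25.3, *Cyp2c38* 69.38±10.96, *Cyp2c40* 0.812±0.227 and *Cyp2c55* 0.391±0.194 CPM per kb. Of the neighbours in this order, only *Cyp2c29* and *Cyp2c39*, *Cyp2c54* and *Cyp2c23*, and *Cyp2c38* and *Cyp2c40* had ranges that did not overlap. *Cyp2c39* exceeded *Cyp2c54* in 10 of 14 mice and *Cyp2c23* exceeded *Cyp2c50* in 12. The deposited lengths of *Cyp2c29* and *Cyp2c50* (3061 and 2918 bases) are longer than the transcripts used for the sequence comparison (1783 and 1812 bases). Per kilobase of transcript, *Cyp2c29* had 1222 CPM, and *Cyp2c50* (294 CPM) stood above *Cyp2c23* (236 CPM).

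The 10 genes together took 0.428–0.540% of counted reads in vehicle and 0.432–0.575% in indole. Their summed level was 4753±504 CPM in vehicle and 5278±506 CPM in indole (SD, *n*=7), and 3 indole-treated mice lay above all vehicle-treated mice. Without *Cyp2c29* the sums were 2882±367 and 2791±348 CPM, and no indole-treated mouse lay above the vehicle range. *Cyp2c29* made up 37.3%, 38.9% and 45.1% of the summed CPM at the lowest, median and highest vehicle-treated mouse and 40.6%, 47.3% and 53.2% in the indole group, where 5 mice lay above all vehicle-treated mice. This share uses the same *Cyp2c29* counts by which the set was chosen.

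Across the 10 genes, 4 had a positive and 6 a negative log2 fold change, with a median of −0.04, against 0.00415 for all genes tested. Without *Cyp2c29* the median was −0.05 and the range −0.13 to 0.63. In edgeR, 1 of the 10 (*Cyp2c29*) had an unadjusted *p* below 0.05, beside 3.81% of all genes tested (482 of 12653), and none had an adjusted *p* below 0.05, beside 0.0% of all genes. *Cyp2c29* was 1 of 3 genes in which every indole-treated mouse lay above every vehicle-treated mouse, which is 0.0237% of the genes tested. Since this contrast chose the genes, nothing is read from these counts. Without the 4 libraries of high TMM factor the log2 fold changes were −0.06 for *Cyp2c39*, −0.03 for *Cyp2c37*, 0.04 for *Cyp2c54*, 0.01 for *Cyp2c50*, −0.14 for *Cyp2c70*, −0.31 for *Cyp2c40* and 0.51 for *Cyp2c55*. Those of *Cyp2c38* and *Cyp2c23* changed sign, to 0.02 each. Among the Cyp2c rows outside the set, the log2 fold changes were 0.18 (SE 0.144) for *Cyp2c67*, 0.00165 (SE 0.0921) for *Cyp2c68* and 0.32 (SE 0.253) for *Cyp2c52-ps*. That of *Cyp2c67* was 0.07 without G2, 0.28 without G10 and 0.03 without the 4 libraries, and that of *Cyp2c52-ps* was 0.11 without the 4.

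**Figure D2:**
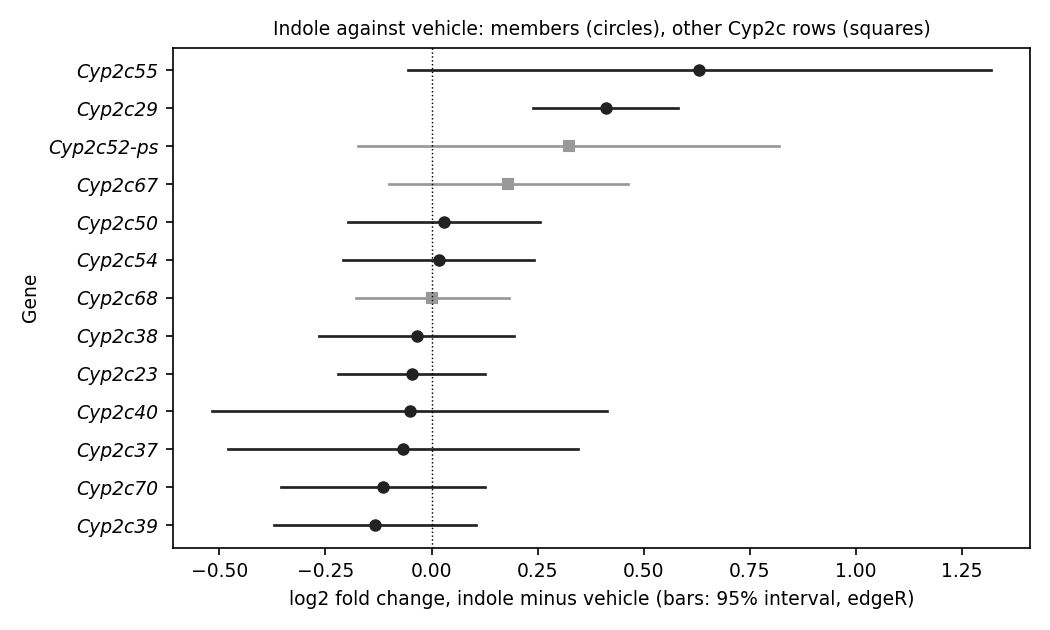
Log2 fold change of indole against vehicle from edgeR for the 13 Cyp2c rows tested, with bars for the 95% interval. Circles are the 10 genes of the set and squares the 3 others, and only the bar of *Cyp2c29* (0.41) lies wholly away from 0.

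How the genes varied together between mice of the same group did not enter their choice. The spread of each gene within groups does enter the contrast by which they were chosen, so the SDs are a description. The SD of log2 CPM within groups was 0.161 for *Cyp2c29* and 0.170 for *Cyp2c23*, near the median of 0.164 over the 1315 tested genes with at least 100 CPM. It was 0.243 for *Cyp2c54*, 0.247 for *Cyp2c50*, 0.257 for *Cyp2c38*, 0.266 for *Cyp2c39* and 0.269 for *Cyp2c70*. *Cyp2c37* was the most variable of the 8 abundant genes at 0.429, a value that 4.71% of the genes with at least 100 CPM exceeded. Its level was 2.55 times as high in G6 as in G13, both of the vehicle group. Read counting alone would give *Cyp2c37* an SD of only 0.0264, whereas for *Cyp2c40* (0.394) and *Cyp2c55* (0.625) counting alone would give 0.268 and 0.389.

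Relations between the genes were measured over the 14 mice as the correlation of log2 CPM after the mean of each group had been removed, with a permutation test of mice within groups and adjustment over all 45 pairs. Of these pairs, 40 had a positive *r*, the median *r* was 0.32, 8 had an unadjusted *p* below 0.05 and 6 had an adjusted *p* below 0.05. All 6 were positive and joined members of 2 sequence subgroups, *Cyp2c37*, *Cyp2c50* and *Cyp2c54* on the one hand and *Cyp2c38* and *Cyp2c39* on the other, or *Cyp2c37* with the second subgroup. By Spearman's rho, 4 pairs had an adjusted *p* below 0.05. The share of pairs that would pass among all genes tested was not measured, so these counts are not read as particular to the Cyp2c genes. *Ndfip1*, picked from all genes tested as the closest to *Cyp2c54*, gave *r*=0.94 with it, beside 0.89 for *Cyp2c50*.

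*Cyp2c50* and *Cyp2c54* rose and fell together between mice (*r*=0.89, rho=0.89, permutation *p*=6e-05 and 7e-05, adjusted *p*=0.00165 and 0.00157). The *r* was 0.90 without the 2 outermost mice, 0.95 within vehicle and 0.81 within indole. *Cyp2c37* and *Cyp2c50* gave *r*=0.86 and rho=0.82 (permutation *p*=9e-05 and 0.0012, adjusted *p*=0.00165 and 0.018), with *r*=0.73 without G13 and G12. In these 3 genes G6 was the highest mouse relative to its group, and G12 and G13 were the 2 lowest for *Cyp2c37* and *Cyp2c50*. *Cyp2c37* and *Cyp2c54* gave *r*=0.77 and rho=0.78 (permutation *p*=0.00274 and 0.00329, adjusted *p*=0.0308 and 0.037), with *r*=0.73 without G13 and G12.

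*Cyp2c38* and *Cyp2c39* gave *r*=0.92 and rho=0.88 (permutation *p*=0.00011 and 4e-05, adjusted *p*=0.00165 and 0.00157). The *r* was 0.78 without G2 and G13, 0.85 within vehicle and 0.96 within indole. G2 lay 0.59 below its group on the log2 scale for *Cyp2c38* and 0.61 below for *Cyp2c39*. *Cyp2c37* was also related to *Cyp2c39* (*r*=0.73, rho=0.72, permutation *p*=0.00375 and 0.00768, adjusted *p*=0.0338 and 0.0576) and to *Cyp2c38* (*r*=0.71, rho=0.72, permutation *p*=0.00578 and 0.0064, adjusted *p*=0.0434 and 0.0576). Without G13 and G12 these *r* were 0.74 and 0.64, and by rho neither passed.

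*Cyp2c29* had no pair with an adjusted *p* below 0.05 among its 9, and none with an unadjusted *p* below 0.05. Its highest *r* was with *Cyp2c50* (*r*=0.51, rho=0.54, permutation *p*=0.0709 and 0.0534, adjusted *p*=0.293 and 0.24), and this *r* was 0.75 without G5 and G1. With its nearest relatives *Cyp2c39* and *Cyp2c38* it gave *r*=0.14 and −0.07 (rho=0.28 and 0.10, permutation *p* of *r* 0.697 and 0.833, adjusted *p*=0.804 and 0.888). Whether these *r* differ from those of the other pairs was not tested. The count of 6 pairs fell to 3 without G6 or without G13 and to 2 when the total count was removed together with the group mean. It was 9, including the same 6, without the 4 libraries of high TMM factor.

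**Figure D3:**
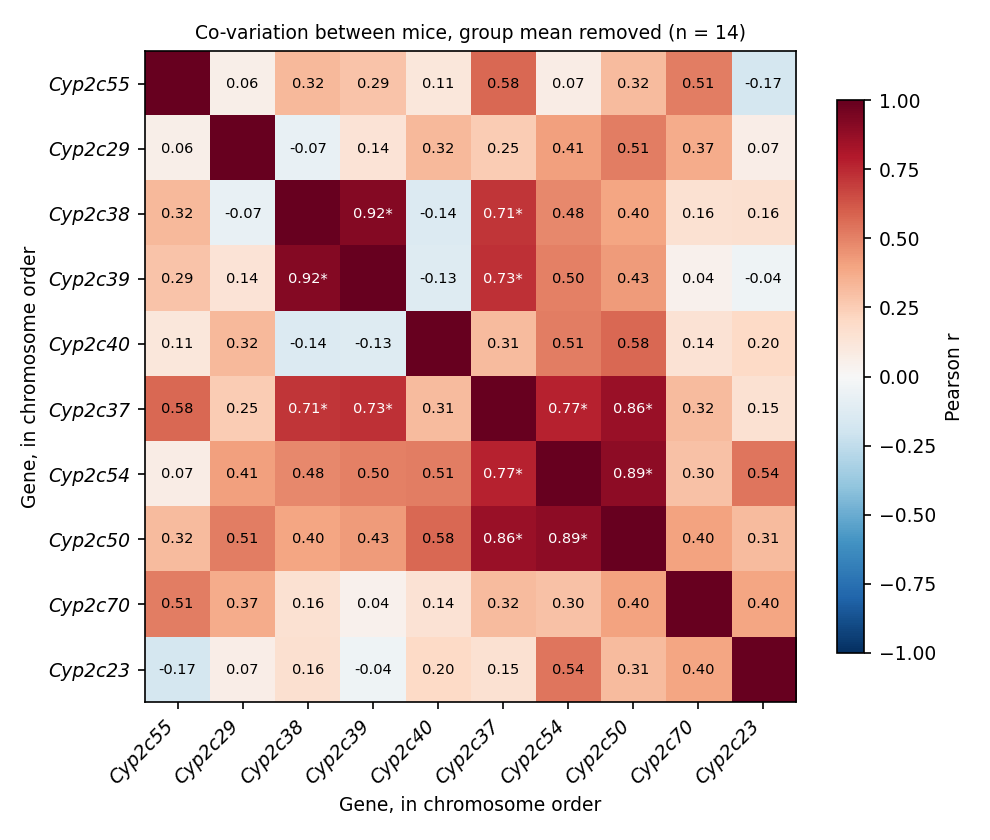
Pearson *r* of log2 CPM between the 10 genes over 14 mice after removal of the group means, in chromosome order, with an asterisk at an adjusted permutation *p* below 0.05. The 6 marked pairs, from 0.71 to 0.92, all involve *Cyp2c37*, *Cyp2c50*, *Cyp2c54*, *Cyp2c38* or *Cyp2c39*, and the row of *Cyp2c29* has none.

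**Figure D4:**
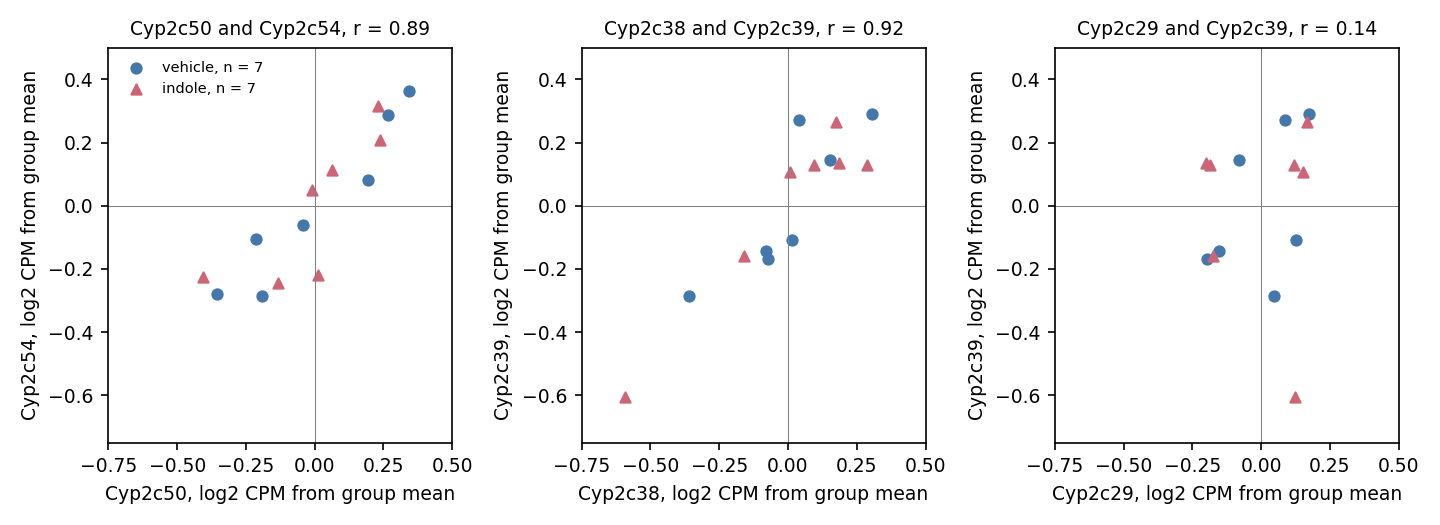
Log2 CPM of each mouse as its distance from the mean of its group, for *Cyp2c50* and *Cyp2c54*, *Cyp2c38* and *Cyp2c39*, and *Cyp2c29* and *Cyp2c39* (vehicle circles, indole triangles, *n*=7 each). The first 2 pairs lie along a line (*r*=0.89 and 0.92), with G2 at the lower left of the second, and the last pair is scattered (*r*=0.14).

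Likeness in sequence was measured over the coding sequences of GENCODE M21, with gaps counted as differences. All sequences given here and below are those of the GRCm38 reference genome. The sequences of the TALLYHO mice themselves were not examined and may differ from it. These sequences were 1470 bases long for *Cyp2c29*, *Cyp2c37*, *Cyp2c38*, *Cyp2c39*, *Cyp2c50*, *Cyp2c54* and *Cyp2c55*. *Cyp2c37* and *Cyp2c50* shared 96.1% of bases, *Cyp2c50* and *Cyp2c54* 95.2%, *Cyp2c37* and *Cyp2c54* 95.1%, and *Cyp2c38* and *Cyp2c39* 94.2%. Of the 45 pairs, these were the only 4 with at least 90% identity. All 4 were among the 6 related pairs, with a median *r* of 0.88, against 2 of the other 41 pairs, which had a median *r* of 0.31. *Cyp2c29* shared 89.5% with *Cyp2c39* and 89.1% with *Cyp2c38*. *Cyp2c70* and *Cyp2c23* had no relative above 69.5% and 66.5%. Over the 45 pairs, which share genes and mice, Spearman's rho between identity and *r* was 0.46.

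Genes this alike can lose or share reads. The share of transcript windows with an exact copy in another Cyp2c transcript, at 100 bases, was 9.40% for *Cyp2c50*, 7.59% for *Cyp2c54* and 4.70% for *Cyp2c37*, and 0 for *Cyp2c29*, *Cyp2c38*, *Cyp2c39*, *Cyp2c55*, *Cyp2c70* and *Cyp2c23*. At 50 bases it was 30.7% for *Cyp2c50*, 30.1% for *Cyp2c37*, 25.7% for *Cyp2c54*, 12.1% for *Cyp2c39*, 7.45% for *Cyp2c38* and 2.08% for *Cyp2c29*. At 150 bases it was 3.25% for *Cyp2c50*, 2.99% for *Cyp2c54*, 0.299% for *Cyp2c37* and 29.1% for *Cyp2c40*. The read length is not given in the sources used here, so the width that applies is not known. *Cyp2c40* had 72.1% at 50 and 44.1% at 100 bases, so its count of uniquely mapped reads is uncertain. Its nearest relative is *Cyp2c68* at 92.6%, a value lowered by the longer coding sequence of *Cyp2c40* (1560 against 1473 bases). Of the 1473 aligned bases, 1445 were identical. The part of shared reads in the relations of *Cyp2c37*, *Cyp2c50* and *Cyp2c54* was not tested.

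The longest coding stretch common to *Cyp2c50* and *Cyp2c54* was 198 bases across exons 3 and 4, and that common to *Cyp2c29* and *Cyp2c39* was 56 bases within exon 3 (chr19:39291137-39291192 in *Cyp2c29*, GRCm38, plus strand). They are shown because a read with the reference sequence that falls wholly inside either stretch fits both genes equally well.
Cyp2c50 and Cyp2c54: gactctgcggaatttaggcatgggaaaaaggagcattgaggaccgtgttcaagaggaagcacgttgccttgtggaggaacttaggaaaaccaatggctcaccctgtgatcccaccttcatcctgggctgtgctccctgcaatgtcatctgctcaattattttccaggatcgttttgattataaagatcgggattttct
Cyp2c29 and Cyp2c39: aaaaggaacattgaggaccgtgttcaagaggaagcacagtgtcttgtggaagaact
Of the other related pairs, *Cyp2c37* and *Cyp2c50* shared at most 154 bases in a row, *Cyp2c37* and *Cyp2c54* 123, *Cyp2c38* and *Cyp2c39* 98, *Cyp2c37* and *Cyp2c38* 65, and *Cyp2c37* and *Cyp2c39* 36.

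**Figure D5:**
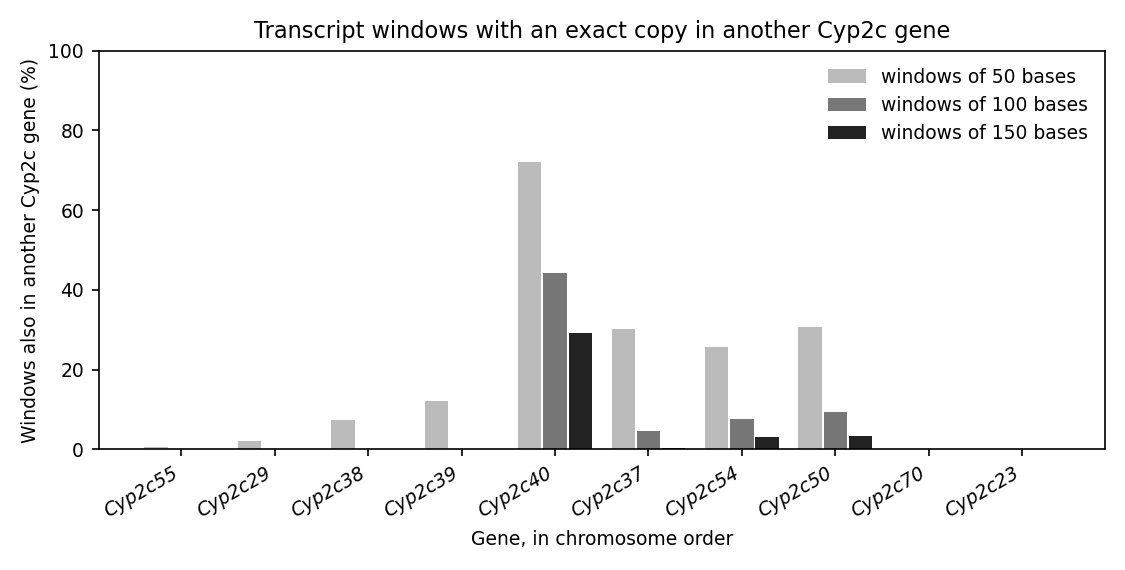
Percentage of all windows of 50, 100 or 150 bases in the transcript of each gene that occur unchanged in another Cyp2c transcript. The bars are highest for *Cyp2c40* (72.1% at 50 bases), intermediate for *Cyp2c37*, *Cyp2c50* and *Cyp2c54*, and at 0 for *Cyp2c70* and *Cyp2c23*.

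The 250 bases before the RefSeq start sites (GRCm38.p6) were compared for 8 of the 10 genes, in 9 windows since *Cyp2c39* has 2. One of these 2, called the distant window here, lies at chr19:39347096-39347345. It is outside the deposited gene of *Cyp2c39*, which begins at 39510862, and on the far side of *Cyp2c38*. It ends shortly before the pseudogene *Cyp2c72-ps* (start 39347367), which had 0 reads. Whether *Cyp2c39* is transcribed from there was not tested. The window of *Cyp2c29*, shown because this gene was the most abundant of the 10, lies at chr19:39286835-39287084 on the plus strand. Capitals mark AGGTCA, a hexamer bound by nuclear receptors, and TATAAA, the TATA box, the only searched motifs found in it.
Cyp2c29: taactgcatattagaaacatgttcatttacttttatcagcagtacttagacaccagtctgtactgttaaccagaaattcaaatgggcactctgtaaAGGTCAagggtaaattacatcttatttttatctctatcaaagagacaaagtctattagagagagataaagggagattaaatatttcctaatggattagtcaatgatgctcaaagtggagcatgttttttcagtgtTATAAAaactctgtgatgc
Both strands were searched. TATAAA was found in 12.4% of all 32851 mouse promoter windows and in those of *Cyp2c29*, *Cyp2c38*, *Cyp2c55* and *Cyp2c70*. AGGTCA was found in 4607 of all windows and in those of *Cyp2c29*, *Cyp2c70* and the distant one of *Cyp2c39*. TGTTTAC, the core of a FOXA site, was found in 3.17% of all windows and in those of *Cyp2c38* and both of *Cyp2c39*. CAAAGTCCA, an HNF4 core, was found in 0.384% of all windows and in those of *Cyp2c40* and *Cyp2c70*, and GTTAAT, part of an HNF1 site, in 6.43% and in that of *Cyp2c40*. TTATGTAA, a PAR bZIP site, was found in 0.819% of all windows and in none of the 9. The windows of *Cyp2c37* and *Cyp2c50* held none of these motifs. A match is a description of letters and not a site, and it depends on where RefSeq places the start. The nearer window of *Cyp2c39* ends at position 39510821, whereas exon 1 of the transcript used begins at 39510862. That of *Cyp2c29* ends at 39287084, inside exon 1 of the transcript used, which begins at 39287074. Its TATAAA begins at −19 from the RefSeq start. The deposited start of *Cyp2c29* (39269405) lies further upstream than the window.

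The most alike upstream windows belonged to *Cyp2c37* (chr19:39992174-39992423, plus strand) and *Cyp2c50* (chr19:40089429-40089678, plus strand), which were 84.3% identical. *Cyp2c38* (chr19:39463076-39463325, minus strand) was compared with the window next to the deposited start of *Cyp2c39* (chr19:39510572-39510821, plus strand). These were 71.0% identical, whereas the identity of *Cyp2c38* with the distant window of *Cyp2c39* was 75.8%. *Cyp2c29* (*r*=0.14 with *Cyp2c39*) was 74.1% and 68.1% identical with the windows of *Cyp2c39*. The part of upstream likeness in the relations between genes was not tested. They are shown because the genes of each pair varied together between mice, with capitals at the bases that differ from the partner or have no counterpart in it.
Cyp2c37: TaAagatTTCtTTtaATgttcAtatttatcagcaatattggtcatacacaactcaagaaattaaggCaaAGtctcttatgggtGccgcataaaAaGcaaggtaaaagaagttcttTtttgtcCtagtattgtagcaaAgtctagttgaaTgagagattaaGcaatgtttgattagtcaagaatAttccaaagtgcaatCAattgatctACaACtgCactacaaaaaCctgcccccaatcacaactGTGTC
Cyp2c50: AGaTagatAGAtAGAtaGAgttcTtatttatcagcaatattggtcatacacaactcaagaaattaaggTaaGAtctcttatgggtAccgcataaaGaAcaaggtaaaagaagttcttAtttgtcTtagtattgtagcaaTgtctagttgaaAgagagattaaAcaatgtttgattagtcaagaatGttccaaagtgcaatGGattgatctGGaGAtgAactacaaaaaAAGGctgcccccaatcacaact
Cyp2c38: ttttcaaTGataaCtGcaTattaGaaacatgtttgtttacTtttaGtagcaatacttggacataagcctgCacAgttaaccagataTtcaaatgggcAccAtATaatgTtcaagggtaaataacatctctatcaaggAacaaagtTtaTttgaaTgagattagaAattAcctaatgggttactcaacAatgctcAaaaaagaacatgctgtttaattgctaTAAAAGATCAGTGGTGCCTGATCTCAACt
Cyp2c39: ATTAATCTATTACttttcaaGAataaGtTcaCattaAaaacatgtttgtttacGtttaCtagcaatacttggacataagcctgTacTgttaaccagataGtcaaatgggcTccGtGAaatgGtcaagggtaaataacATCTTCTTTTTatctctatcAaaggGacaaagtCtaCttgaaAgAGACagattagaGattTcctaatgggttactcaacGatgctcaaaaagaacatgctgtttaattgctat
In the first pair 35 bases of each window were marked, and in the second pair 52. Bases without a counterpart count as differences, so each identity also depends on where the windows are cut.

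For each gene the genes whose levels followed it most closely between mice, after removal of group means, are named as a description (*n*=14, selected as the 3 highest *r* among all genes tested, from the same libraries). *Cyp2c39* was followed most closely by *Cyp4a10* (*r*=0.92), a fatty acid hydroxylase and PPARα target, by *Cyp2c38* (0.92) and by *Fmo1* (0.91), a flavin monooxygenase. *Cyp2c38* was followed by *Cyp2c39*, *Mgst3* (0.89) and *Slc16a7* (0.88). *Cyp2c37* was followed by *Lman2l* (0.92), *Mpc1-ps* (0.90) and *Cyp2b10* (0.87), the classical CAR target. *Cyp2c54* was followed by *Ndfip1* (0.94), *Atp6v0e* (0.94) and *Cyp2a12* (0.93), a steroid hydroxylase, and *Cyp2c50* by *Sub1* (0.93), *Fabp2* (0.92) and *Ier3ip1* (0.90). The genes nearest to *Cyp2c29* were *Brca1* (0.83), *Dnajc10* (0.83) and *Hsp90b1* (0.82), the last 2 being chaperones of the endoplasmic reticulum. *Cyp2c23* was nearest to *Etnppl* (0.88), *Asb11* (0.86) and *Gm11560* (0.85), and *Cyp2c70* to *Tmem47* (0.88), *Cd9* (0.86) and *Sod3* (0.85). The low-count genes were nearest to *Ebna1bp2*, *Rnf7* and *Smim14* for *Cyp2c40* (0.83–0.87) and to *Lamc1*, *Arhgap27* and *Unc5b* for *Cyp2c55* (0.91–0.92).

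The same relations were tested between the 10 genes and 34 regulators and partners together with an acute-phase score, 350 pairs in all. By the permutation test 53 pairs had an unadjusted *p* below 0.05 and none had an adjusted *p* below 0.05 by *r* or by rho. These pairs share genes and mice, and the share that would pass among other genes was not measured. Nothing is therefore read from the count of 53. The smallest adjusted *p* was shared by *Cyp2c54* with *Stat5a* (*r*=−0.77, rho=−0.83, permutation *p*=0.00034 and 0.00047, adjusted *p*=0.0595 and 0.0822, *r*=−0.76 without G6 and G5) and *Cyp2c54* with *Jak2*, both of growth hormone signalling (*r*=−0.82, rho=−0.80, permutation *p*=0.0002 and 0.00076, adjusted *p*=0.0595 and 0.0822, *r*=−0.72 without G6 and G5). *Cyp2c54* was also the gene whose level moved most with the TMM factor of the library (*r*=−0.70, against −0.43 to 0.41 for the other 9). With that factor removed together with the group mean, a setting chosen after seeing the data, 0 of the 350 pairs had an adjusted *p* below 0.05. Pairs between Cyp2c genes that passed then numbered 6, of which 5 were the same as before. The values of single pairs in that setting are not given here. For *Cyp2c29* the largest *r* was −0.55, with *Nr1i2*, which encodes PXR (rho=−0.35, permutation *p*=0.0624 and 0.253, adjusted *p*=0.369 and 0.726, *r*=−0.71 without G5 and G1). With the acute-phase score *Cyp2c29* gave *r*=0.31 (rho=0.14, permutation *p*=0.286 and 0.634, adjusted *p*=0.732 and 0.9). The number of pairs that passed was 2 with RLE scaling, 5 without G9, 7 without G12 and 1 without G14.

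The receptors and factors that control Cyp2c genes were themselves compared between the groups, beside 3.81% of all genes tested with an unadjusted *p* below 0.05 and 6489 higher and 6164 lower in indole. Of the 10 xenobiotic receptors and partners, 2 were higher and 8 lower in the indole group, with a median log2 fold change of −0.05, and none had an unadjusted *p* below 0.05. *Nr1i3*, which encodes CAR, had 83.3±27.1 CPM in vehicle and 82.9±29.4 CPM in indole (SD, *n*=7), *Nr1i2* had 52.1±5.61 and 50.4±7.05 CPM, and *Rxra*, their common partner, had 418±37.5 and 390±25.8 CPM. Of 12 liver-enriched factors, 3 had higher and 9 had lower means, and *Foxa3* alone had an unadjusted *p* below 0.05 (log2 fold change −0.43, SE 0.177), which it lost in 5 of the 14 fits that left out 1 mouse (G4, G5, G7, G10 or G14, −0.33 to −0.42). *Hnf4a* had 477±40.1 and 453±26.6 CPM. Of 6 growth hormone and sex-bias regulators, 1 was higher and 5 lower, and the growth hormone receptor *Ghr*, at 505±24.4 and 558±33.6 CPM, had an unadjusted *p* below 0.05, which it lost without G2, G7, G9, G11 or G14 (log2 fold change 0.12 to 0.14) and without the 4 libraries of high TMM factor (0.13). None of these genes had an adjusted *p* below 0.05 in edgeR.

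Genes that share inducers, substrates or electrons with the Cyp2c enzymes were counted in the same way. Of 17 tested CAR and PXR targets, 7 had higher and 10 had lower means in the indole group (median log2 fold change −0.03), and none had an unadjusted *p* below 0.05. Among them *Cyp2b10* had 21.03±8.41 CPM in vehicle and 17.7±10.6 CPM in indole (SD, *n*=7), and *Cyp3a11* had 11385±1949 and 11851±2510 CPM. Of 6 electron partners and haem genes, 4 were higher and 2 lower, with *Por* at 501±87.2 and 492±73.6 CPM and *Pgrmc1* at 1542±105 and 1665±134 CPM. Of 11 tested epoxide hydrolases and other arachidonic acid P450 genes, 7 were higher and 4 lower (median 0.15), none with an unadjusted *p* below 0.05. Soluble epoxide hydrolase *Ephx2*, which opens the epoxides that Cyp2c enzymes form, had 514±38.3 and 571±49.2 CPM.

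Of 10 genes of bile acid synthesis and conjugation, the pathway beside *Cyp2c70*, 7 were higher and 3 lower, and *Cyp27a1* alone had an unadjusted *p* below 0.05 (344±13.8 and 385±24.7 CPM, SD, *n*=7), which it lost without the 4 libraries of high TMM factor (log2 fold change 0.14). *Slc10a1*, the bile acid uptake carrier, had 1058±148 and 1087±143 CPM. Of 24 tested family 2 P450 genes outside Cyp2c, 15 had higher and 9 had lower means (median log2 fold change 0.05), none of them with an unadjusted *p* below 0.05. The most abundant were *Cyp2e1* at 4517±553 and 4631±180 CPM, *Cyp2f2* at 1801±221 and 1702±259 CPM and *Cyp2d9* at 1555±273 and 1734±321 CPM. In edgeR none of the genes in these lists had an adjusted *p* below 0.05.

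Several Cyp2c genes are known to be expressed around the central vein. Of 8 pericentral markers 4 were higher and 4 lower (median log2 fold change −0.03), with *Glul* at 527±54.7 CPM in vehicle and 531±77.7 CPM in indole (SD, *n*=7), and of 8 periportal markers 2 were higher and 6 lower (median −0.05), with *Cps1* at 5574±698 and 5180±1187 CPM. None of these 16 had an unadjusted *p* below 0.05. All 13 acute-phase genes, which mark inflammation known to lower P450 transcripts, had lower means in the indole group (median −0.22). Over all genes tested, 6164 of 12653 were lower. Only *Saa1* (−2.82, SE 1.05) and *Saa2* (−3.09, SE 1.11) had an unadjusted *p* below 0.05, beside 3.81% of all genes tested. Both rest on vehicle-treated mouse G11, without which they were −1.17 (SE 0.729) and −1.23 (SE 0.739) and no longer passed that level. Without the 4 libraries of high TMM factor they were −2.99 and −3.26 and did not pass it either. The summed level of the 13 was 12389–25329 CPM in vehicle and 11511–21128 CPM in indole, and its part in the levels of the Cyp2c genes was not tested beyond the correlations above.

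Markers of other cells of the lobe were also counted. In the indole group 6 of 7 Kupffer cell markers and 6 of 6 sinusoidal endothelial markers had higher means, as did 3 of 6 stellate cell markers and 0 of 5 bile duct markers. Over all genes tested, 6489 were higher and 6164 lower. Markers of the same cell type can vary together, so these are not separate results. Of these markers, *Clec4g* (log2 fold change 0.37), *Col1a1* (−0.67) and *Krt19* (−0.94) had an unadjusted *p* below 0.05, beside 3.81% of all genes tested. So had *Ttr* (0.24) among the 5 hepatocyte markers and *Fabp2* (0.22) as 1 of 2 tested intestinal markers. *Fabp2* lost it in 7 of the 14 fits that left out 1 mouse (G1, G4, G5, G7, G8, G9 or G13, 0.17 to 0.20). None of the 7 T and B cell markers had enough reads to be tested, and their summed level was 0.333–2.62 CPM. No gene of these lists had an adjusted *p* below 0.05 in edgeR, and the part of these cells in the Cyp2c levels was not tested.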

How the data were processed

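Liver RNA libraries were used for 14 TALLYHO mice (7 vehicle, 7 indole), grouped by the sample labels. The authors trimmed the reads, mapped them to GRCm38 with HISAT2, discarded those without a unique position and deposited raw counts per gene. The counting tool is not given in the sources used here. Each library held 15197498–21060376 counts, so genes of few reads carry a large counting error. Chi-square per degree of freedom was at least 16.7 between libraries of a group, so all were kept as separate samples. The *p* values measure the spread between these mice.

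Counts were normalised with TMM, filtered with filterByExpr and tested with edgeR 4.0.16 (robust quasi-likelihood, Benjamini–Hochberg over 12653 genes) in R 4.3.3. CPM per kilobase used the deposited gene lengths. Relations between mice used log2 CPM (prior count 2) with group means removed and 100000 two-sided permutations within groups (Python 3.11.15, scipy 1.17.1), for which 1e-05 is the smallest *p*. Sequences were aligned with Biopython 1.88 from GENCODE M21 and RefSeq windows on GRCm38. Both procedures were tested on simulated data. The Cyp2c genes and the gene lists were chosen with earlier results of these data known. The genes named were the 10 Cyp2c genes, the other Cyp2c rows, the most abundant gene of each list and those with an unadjusted *p* below 0.05, the 3 most abundant family 2 P450 genes outside Cyp2c, and the 3 genes most like each Cyp2c gene. *Nr1i3*, *Nr1i2*, *Por*, *Ephx2* and *Glul* were added for their roles, as were 5 intestinal markers, *Jak2* and *Stat5a*, all after their values had been seen. Of the list genes named by this rule, *Hpx*, *Cyp2j5*, *Dcn*, *Clec4f* and *Spp1* enter only in counts. Alternatives were RLE and upper quartile scaling, DESeq2 1.42.0, limma voom (3.58.1) with quality weights, no filter on low counts, a mean of at least 10 counts, removal of the total count with the group mean, and each mouse left out in turn.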

Additional observations from a re-analysis of the deposited data

How the results depend on the processing

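The log2 fold change of *Cyp2c29* was positive under all 22 alternatives, between 0.38 and 0.44. All 220 values of single genes and 20 vehicle levels moved by less than the SD between mice of a group. Another scaling or the loss of 1 mouse can seldom move a value that far, and changes of sign were not counted, so nothing is concluded from this. *Cyp2c55* was positive in all 22 and *Cyp2c39* and *Cyp2c70* in 0, whereas *Cyp2c50* and *Cyp2c54* were positive in 17, *Cyp2c40* in 4, *Cyp2c37* and *Cyp2c38* in 3 and *Cyp2c23* in 2. DESeq2 on the same 12653 genes called 1 gene at an adjusted *p* below 0.05, *Cyp2c29* (adjusted *p*=0.0393). On 22535 genes, all those read in at least 1 mouse, a setting chosen after seeing the data, its adjusted *p* was 0.0718. Over all 22 alternatives the adjusted *p* of *Cyp2c29* ran from 0.0393 to 0.99998 (edgeR, limma or DESeq2). Genes with an unadjusted *p* below 0.05 numbered 1336 with no filter on low counts, where more genes are tested. Leaving out each mouse in turn gave 386–627 such genes, 0 with an adjusted *p* below 0.05, and a median log2 fold change of the Cyp2c genes between −0.08 and 0.05. Related pairs of Cyp2c genes numbered 3–7 when 1 mouse was left out (3 without G6 or G13) and 2 when the total count was removed with the group mean. The cause was not tested. Pairs with regulators numbered 2 with RLE scaling and 0–7 when 1 mouse was left out. Settings chosen after seeing the data also included leaving out the 4 libraries of high TMM factor, which gave 9 related pairs and 413 genes with an unadjusted *p* below 0.05, removing the TMM factor with the group mean, which gave 6 related pairs, of which 5 were the same, and the transcript length for levels. No paired analysis was possible because the labels give the groups no shared replicate numbers. *Cyp2c67*, outside the set, ran from 0.03 to 0.28. Depth limits *Cyp2c40* and *Cyp2c55*, with at most 46 and 30 reads per library.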
